A study of Saccharomyces cerevisiae with 2 samples.

Results

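The first internal transcribed spacer (ITS1) of the yeast 35S pre-rRNA was examined nucleotide by nucleotide in CRAC data of Pol5. Its members were the 361 nucleotides listed as ITS1 in the deposited coverage of the RDN37-2 copy, out of 6858 nucleotides of the whole transcript. They were numbered from 1 at the first nucleotide after the 18S rRNA, and a last listed nucleotide that repeated the first of the 5.8S rRNA was left out. The length of 361 nt is also that of ITS1-2 in the RefSeq R64 annotation, where the spacer lies between RDN18-2 and RDN58-2. CRAC (crosslinking and analysis of cDNA) maps protein contacts on RNA: UV light links the protein to RNA in growing cells, the RNA is trimmed around the protein, purified with it under denaturing conditions and sequenced, and a read is then scored as 1 hit on each nucleotide within it. There was 1 library of BY4741 cells expressing Pol5 with a C-terminal His-TEV-ProteinA (HTP) tag from its own genomic locus, and 1 library of BY4741 cells with wild-type genotype (WT). Both cultures were in exponential phase and were irradiated at 254 nm. The control carries the title WT-HTP but a wild-type genotype label, and was taken as untagged. With no replicates, no test between the libraries was possible, and all intervals below cover counting error only.

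ITS1 separates the RNA of the small subunit from that of the large subunit, and is removed entirely during ribosome synthesis. Cleavage at site A2 yields 20S pre-rRNA, which keeps the 18S side of ITS1 until it is cut at site D, the 3′ end of 18S rRNA, and 27SA2 pre-rRNA, which begins at A2. In the major pathway 27SA2 is then cut at site A3 by RNase MRP, and 5′-3′ exonucleases trim the resulting 27SA3 to site B1S, the 5′ end of the short 5.8S rRNA. A minor pathway leaves a slightly longer 5.8S rRNA that begins at B1L, within the last nucleotides of ITS1. The spacer was divided at A2 and A3 into an 18S side (nucleotides 1 to 212), a middle stretch (213 to 288) and a 5.8S side (289 to 361). The deposited coverage does not mark these sites. The 3 ITS1 oligonucleotides of the study that probe these stretches matched the deposited sequence exactly, at nucleotides 111 to 130 (DA2), 268 to 283 (A2A3) and 326 to 349 (A3B), each within the stretch it is named for.

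Pol5-HTP coverage of ITS1 formed 4 hills separated by deep troughs, followed by a rise into the 5.8S rRNA. The sequences under the hills, here from the first to the last nucleotide at or above 50% of the summit, are shown because all later comparisons refer to them. Capitals mark the summit with 2 nt on each side.
Hill 1 (nucleotides 76 to 118): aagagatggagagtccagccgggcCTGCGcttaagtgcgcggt
Hill 2 (nucleotides 154 to 190): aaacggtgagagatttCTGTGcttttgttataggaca
Hill 3 (nucleotides 234 to 273): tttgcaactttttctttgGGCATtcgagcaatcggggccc
Hill 4 (nucleotides 288 to 342): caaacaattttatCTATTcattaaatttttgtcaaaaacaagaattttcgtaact
Hills 1 and 2 lie on the 18S side, hill 3 fills most of the middle stretch, and hill 4 begins at the A3 limit and lies on the 5.8S side.

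**Figure D1:**
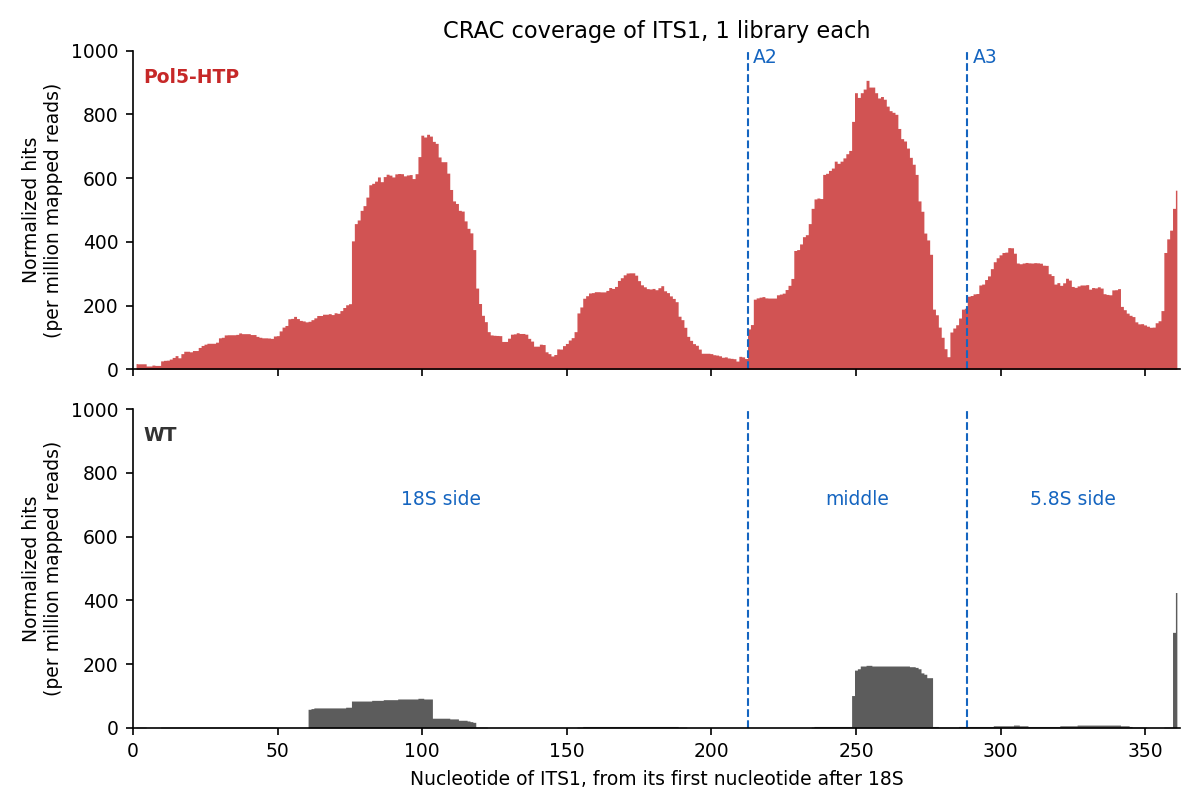
CRAC coverage of ITS1 in normalized hits (per 1000000 mapped reads) by nucleotide, for the Pol5-HTP library (top) and the WT library (bottom) on the same scale, with dashed lines at A2 and A3. Pol5-HTP has 4 hills with summits at nucleotides 102, 172, 254 and 303, whereas WT has separate blocks at 61 to 118, 249 to 276 and 360 to 361.

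Coverage was deposited in normalized hits, that is, hits per 1000000 mapped reads. All values were whole multiples of 1 read, which was worth 2.16 normalized hits for WT and 0.570 for Pol5-HTP, so that the reads behind each nucleotide are known. The coverage was scaled to 463950 and 1755048 reads, whereas the reads assigned to RNA classes summed to 1092199 and 1073688. Had the latter been the denominators, the ratios between the libraries (Pol5-HTP over WT) would be 3.85 times as high. Pol5-HTP covered every nucleotide of ITS1, with 19 to 1592 reads. WT had no read at 96 of the 361 nucleotides and at most 3 reads at 256 of them.

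Averaged over ITS1, coverage by Pol5-HTP was 287 normalized hits, against 28.9 for WT. Of its 361 nucleotides, 359 were at least 2 times as high in Pol5-HTP as in WT after 10 normalized hits were added to both, against 36.0% of all nucleotides of the 35S pre-rRNA. The 2 exceptions were the last nucleotides, 360 and 361, and no nucleotide was higher in WT. This near-complete excess was shared with the other spacers transcribed 5′ of 25S rRNA, since 95.9% of the nucleotides of the 5′ ETS and 96.6% of those of ITS2 passed the same threshold, whereas 18.7% of those of 18S rRNA and 1.90% of those of 5.8S rRNA did. ITS1 differed from these spacers in level, in both libraries. The Pol5-HTP mean was 8.20 times as high in the 5′ ETS and 9.25 times as high in ITS2. For WT, the means were 9.39 and 4.68 times as high. The part of all 35S hits that fell within ITS1 was 1.28% for Pol5-HTP but 0.143% for WT. It was 20.3% and 2.60% for the 5′ ETS, and 7.60% and 0.429% for ITS2. Relative to WT, the log2 ratio of ITS1 (2.93, 95% interval 2.81 to 3.05) was below that of ITS2 by 1.27 (1.09 to 1.44). With no normalized hits added, ITS1 was below ITS2 by 0.98, outside this interval. For the 5′ ETS the direction of the difference depended on the value added. ITS1 was lower by 0.14 (0.0035 to 0.27) with 10 normalized hits added. It was higher with none, where the 5′ ETS minus ITS1 was -0.20.

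The excess over WT was near-complete within ITS1, but not over the last 100 nt of 18S rRNA before it. Within the last 100 nt of 18S rRNA, Pol5-HTP had a mean of 27.8 normalized hits and WT of 112, and 17 of these nucleotides passed the 2-fold threshold. Shortly before site D, WT coverage fell from 47 reads at nucleotide 1798 of 18S rRNA to 3 at 1799 and 1 at 1800. Pol5-HTP had 44, 35 and 33 reads at the same nucleotides and 32 at the first nucleotide of ITS1, where WT had 1. At site D itself neither library had a marked step. WT had 1 read on both sides, and Pol5-HTP changed from 33 to 32 reads, at a low level. This Pol5-HTP change lay within a decline from 63 reads at nucleotide 1796 of 18S rRNA. At most 32 Pol5-HTP reads can have crossed the boundary, since a read that crosses it covers both neighbouring nucleotides. The ratio over WT at nucleotide 1 was 8.46, with an exact interval of 1.41 to 344 that shows how little the single WT read fixes it. The lowest Pol5-HTP value of ITS1 followed at nucleotide 5, with 19 reads or 10.8 normalized hits, where WT had none.

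On the 18S side, which 20S pre-rRNA keeps and the DA2 probe detects, Pol5-HTP averaged 220 normalized hits and WT 19.1 (log2 ratio 2.98, interval 2.70 to 3.26). Hill 1 had its summit at nucleotide 102, with 738 normalized hits or 1295 reads in Pol5-HTP and 90.5 normalized hits or 42 reads in WT. The ratio was 8.15 (exact interval 5.996 to 11.4). Hill 1 thus stood over a stretch that was also covered in WT, whose own highest value on the 18S side was 43 reads at nucleotide 99. Hill 2 had its summit at nucleotide 172, with 303 normalized hits or 532 reads in Pol5-HTP and 4.31 normalized hits or 2 reads in WT. The stretch under hill 2 had almost no WT reads, so that its ratio of 70.3 is known only to lie between 19.4 and 582. Coverage dropped to 74 reads at nucleotide 145 between both hills, and to 46 reads at nucleotide 209 after hill 2, where WT had no reads. At the DA2 probe, on the falling flank of hill 1, Pol5-HTP averaged 268 normalized hits and WT 9.70. The largest fall of Pol5-HTP on the 18S side, from 660 to 448 reads after nucleotide 118, ended hill 1 within this probe.

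The middle stretch is present in 35S and 27SA2 pre-rRNA, among others, but in neither 20S nor 27SA3. It had the highest mean of the 3 stretches in both libraries, 485 normalized hits for Pol5-HTP and 69.5 for WT (log2 ratio 2.64, interval 2.37 to 2.90). The summit of hill 3 at nucleotide 254 was the maximum of ITS1, with 907 normalized hits or 1592 reads in Pol5-HTP against 196 normalized hits or 91 reads in WT, a ratio of 4.62 (3.74 to 5.78). It reached 4.41% of the Pol5-HTP maximum on the 35S pre-rRNA. Hill 3 was the highest of the hills and had the lowest ratio over WT among the 4 summits, with an interval below that of hill 1. The A2A3 probe lay on its 3′ flank, where Pol5-HTP averaged 353 normalized hits and WT 102.

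On the 5.8S side, which 27SA2 and 27SA3 share, Pol5-HTP averaged 276 normalized hits and WT 15.1 (log2 ratio 3.51, interval 3.37 to 3.65). Hill 4 was broad and flat, with a summit of 382 normalized hits or 671 reads at nucleotide 303 against 6.47 normalized hits or 3 reads in WT, a ratio of 59.1 (20.1 to 287). Its core was 55 nt long, against 37 to 43 nt for the other hills. Coverage fell to 232 reads at nucleotide 352 and then rose into the 5.8S rRNA. The A3B probe lay within hill 4 and averaged 225 normalized hits for Pol5-HTP against 7.01 for WT.

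The log2 ratio was higher on the 5.8S side than on the 18S side, by 0.53 (0.22 to 0.84), and this direction was the same under all 10 alternatives run. The size was not: without 10 or 30 nt at each end of ITS1 the difference was 1.15 and 1.29, outside the counting interval. Among the 10, the alternative without nucleotides of at least 4 WT reads (0.78) was chosen after the data were seen. It is shaped by that selection and adds no support. The last 2 nucleotides, 360 and 361, held 65.8% of the WT hits of the 5.8S side and 5.31% of its Pol5-HTP hits. The middle stretch had the lowest ratio of means, but its order changed with the processing: by the median over nucleotides its log2 ratio was 5.16, the highest of the 3, against 3.66 on the 18S side and 4.06 on the 5.8S side. As means, the middle stretch minus the 18S side was -0.34 (-0.73 to 0.041) and the middle stretch minus the 5.8S side -0.87 (-1.17 to -0.57). WT hits were concentrated on few nucleotides of the middle stretch, where the WT mean was 69.5 normalized hits and the WT median 4.31. Of the Pol5-HTP hits in ITS1, 45.01% lay on the 18S side, 35.6% in the middle stretch and 19.4% on the 5.8S side (95% Wilson intervals on hits 44.8% to 45.2%, 35.3% to 35.8% and 19.2% to 19.6%). In WT the shares were 38.8%, 50.6% and 10.6% (37.5% to 40.2%, 49.2% to 52.0% and 9.72% to 11.5%). These stretches make up 58.7%, 21.1% and 20.2% of the length. The Wilson intervals are too narrow because 1 read gives many hits. Counted instead by the stretch in which they must at least begin, 27.1% of 340 WT reads and 36.2% of 5122 Pol5-HTP reads fell in the middle stretch, so that the order of the libraries turned. Of these WT reads, 196 began at the last 2 nucleotides, and without these 2 nucleotides the middle stretch had 63.9% of 144 WT reads and 37.9% of 4902 Pol5-HTP reads. Which library had the larger share in the middle stretch thus depended on the measure and on the end of ITS1.

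**Figure D2:**
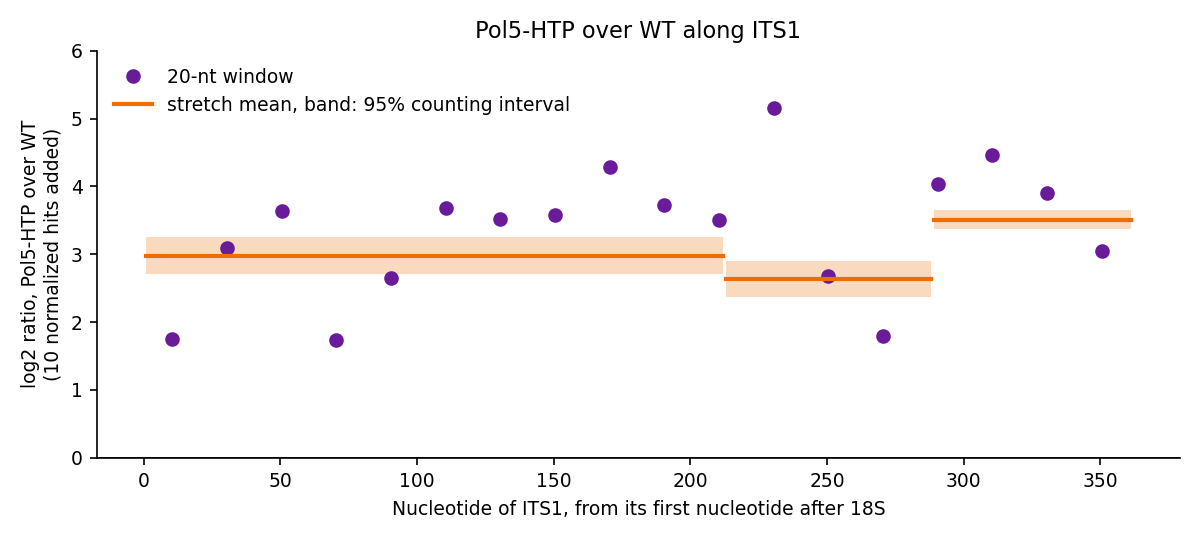
The log2 ratio of Pol5-HTP over WT, with 10 normalized hits added to both means, in 20-nt windows along ITS1 (points) and over each stretch (lines, with bands for the 95% counting interval). The 18 windows of full length, which leave out nucleotide 361 (0.40 alone), range from 1.74 at nucleotides 61 to 80, where a WT block begins, to 5.15 at nucleotides 221 to 240, before the WT block of the middle stretch.

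**Figure D3:**
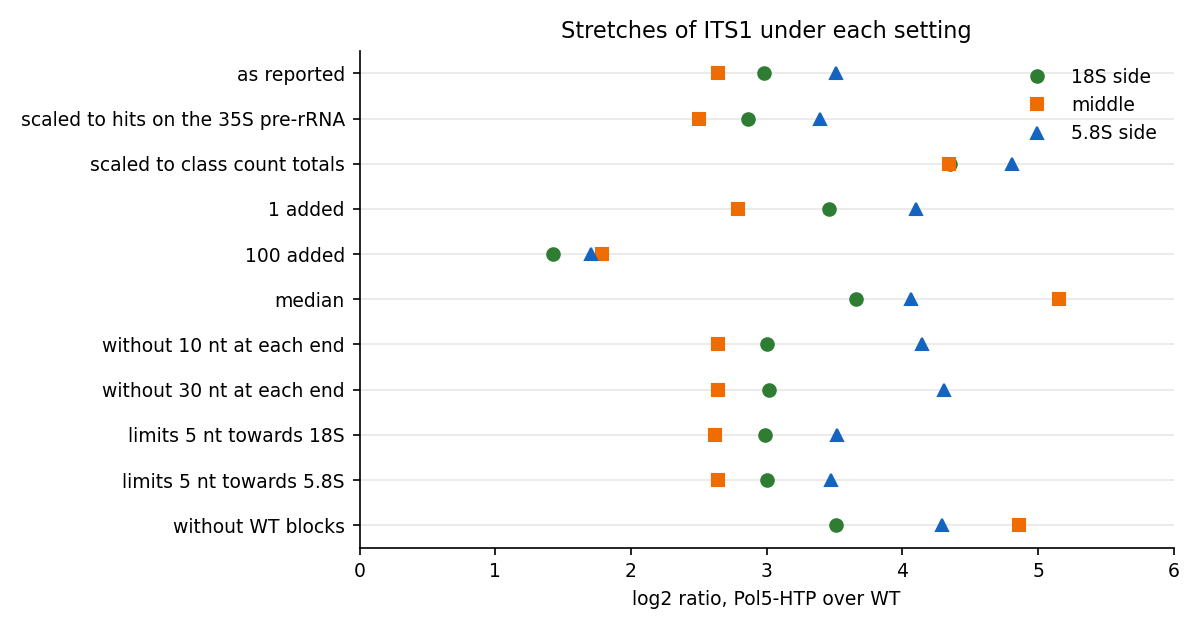
The log2 ratio of Pol5-HTP over WT on the 18S side (circles), in the middle stretch (squares) and on the 5.8S side (triangles) as reported and under 10 alternatives. The 5.8S side lies above the 18S side in each, whereas the middle stretch moves from the lowest as reported (2.64) to the highest by the median (5.16). The alternative without WT blocks leaves out nucleotides chosen for their high WT coverage.

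The WT reads in ITS1 were not spread along the spacer but lay in blocks with sharp edges. Nucleotides with at least 4 WT reads formed 5 runs that covered 105 nt, or 29.1% of ITS1, and held 94.4% of the WT hits but only 52.0% of the Pol5-HTP hits. The first large block, from nucleotide 61 to 118 under hill 1, began with a rise from 0 to 27 reads at nucleotide 61, fell within the block from 42 to 14 reads after nucleotide 103, and ended with a fall from 8 to 1 read after nucleotide 118. Pol5-HTP changed from 262 to 265 reads at the first of these positions, from 1285 to 1256 at the second and from 660 to 448 at the third, which was also its largest fall on the 18S side. In normalized hits the WT changes measured 58.2, 60.4 and 15.1 and the Pol5-HTP changes 1.71, 16.5 and 121. Both libraries thus fell at the 3′ edge of the block, but in WT this rests on a change from 8 to 1 read. The heights of the changes differed in both directions.

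The WT block of the middle stretch, from nucleotide 249 to 276, had edges at the same positions in both libraries. WT coverage rose from 2 to 84 reads between nucleotides 248 and 250 and fell from 73 to 2 reads after nucleotide 276. Pol5-HTP rose from 1206 to 1524 reads and fell from 634 to 332 reads at the same positions, the largest fall of the middle stretch in both libraries. Expressed in normalized hits, the rise measured 177 for WT and 181 for Pol5-HTP, and the fall 153 for WT and 172 for Pol5-HTP, so that both edges were of nearly equal height in the libraries with the coverage as deposited. With WT subtracted, Pol5-HTP had 683 normalized hits at nucleotide 248, a highest value of 711 at nucleotide 254 and 185 at nucleotide 277. The summit of hill 3 thus stayed at nucleotide 254, and most of its height was in excess of WT. Whether both libraries hold the same RNA fragments there was not tested. The equal heights hold for the deposited scaling only. With the class totals as denominators, the Pol5-HTP edges would be 3.94 and 4.33 times as high as those of WT, whereas the change after nucleotide 103 under hill 1 would be 1.05 times as high, in place of 0.274.

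**Figure D4:**
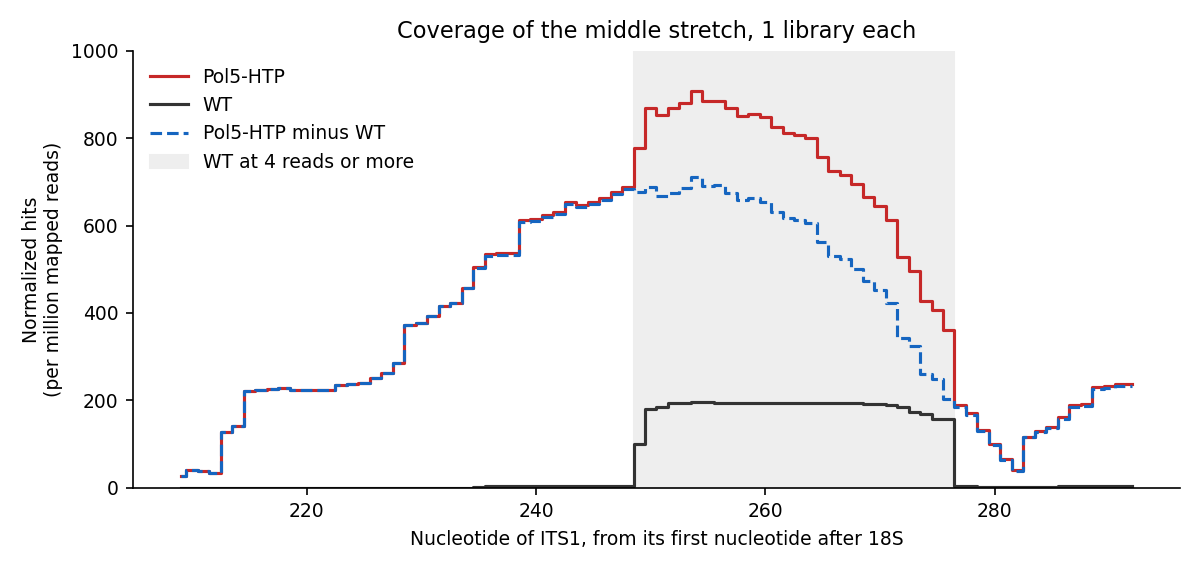
Normalized hits along the middle stretch and its flanks for Pol5-HTP, WT and their difference, with the nucleotides 249 to 276, where WT had 4 reads or more, shaded. Both libraries step up by 177 and 181 normalized hits at the left edge and down by 153 and 172 at the right edge, and the difference (dashed) passes both edges without such steps.

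The nucleotides outside these blocks were chosen for their low WT coverage, so that the values over them describe the Pol5-HTP level and are no sign of an excess. The 96 nucleotides with no WT read lay in 5 gaps, the longest of 43 nt from nucleotide 192 to 234 across A2. Pol5-HTP had 19 to 803 reads at these nucleotides, with a median of 187.5. Their Pol5-HTP mean of 129 normalized hits was 19.98 times the value of 3 WT reads at a nucleotide (6.47 normalized hits). In the gap across A2 the mean of 165 normalized hits was 25.5 times this value. The 3 reads are a chosen floor, so these multiples are no lower bounds on a ratio over WT. Over the 256 nucleotides with at most 3 WT reads, the Pol5-HTP mean was 194 normalized hits and the WT mean 2.27. Across all 361 nucleotides both profiles had a Spearman correlation of 0.76 and a Pearson correlation of 0.70. The points share neighbouring reads and are not independent.

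Coverage of Pol5-HTP changed abruptly at a few nucleotides. A read that covers a nucleotide but not the one before it must begin there, so the rise from one nucleotide to the next gives the least number of reads that begin at this position. Ends made by RNase trimming and ends already present in the pre-rRNA cannot be told apart in these reads. The sequences at the 4 sharpest rises of Pol5-HTP are shown with 15 nt on the 5′ side, and with capitals from the nucleotide where reads begin.
Nucleotide 76: actgggcaagaagacAAGAGATGGAGAGTC
Nucleotide 213, the first after A2: ccgtttcaatacaacACACTGTGGAGTTTT
Nucleotide 283, before A3: gggcccagaggtaacAAACACAAACAATTT
Nucleotide 357: tggaaattttaaaatATTAA
The last of these ends at nucleotide 361, the end of ITS1.

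At A2, Pol5-HTP coverage rose from 60 reads at nucleotide 212 to 223 reads at nucleotide 213, or from 34.2 to 127 normalized hits, whereas WT had no reads on either side. At least 163 of the 223 reads, or 73.1% (exact interval 66.8% to 78.8%), thus began at nucleotide 213, and at most 60 reads can have spanned A2. Of the 355 positions in ITS1 that followed a nucleotide with at least 30 Pol5-HTP reads, the A2 position had the largest fold rise, 3.72. A further rise to 387 reads followed at nucleotide 215. Coverage before A2 was among the lowest of ITS1, and the A2 position separated it from hill 3.

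Near A3 the trough lay 6 nt on the 18S side of the A3 limit. Coverage fell to 70 reads at nucleotide 282 and rose to 206 reads at nucleotide 283, so that at least 136 reads, or 66.0% (59.1% to 72.5%), began there and at most 70 can have spanned this position. This was the second largest fold rise of ITS1, 2.94. Between nucleotides 288 and 289 the count changed from 337 to 403 reads, a rise of 1.20 times that ranked the 12th. WT had 1 read at nucleotides 282 and 283 and 2 reads at 288 and 289. The A2 and A3 regions were thus alike in that few reads could span the trough, but the abrupt rise coincided with the limit used here at A2 only.

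Rises of at least 2 times from at least 30 reads were rare along the 35S pre-rRNA. They were found at 20 of 6572 positions, or 0.304%, in Pol5-HTP, a threshold chosen after the values were seen. ITS1 had 2 of them among 355 positions (0.563%), those at nucleotides 213 and 283, the 5′ ETS 8, 18S rRNA 1 and 25S rRNA 9. Their number in ITS1 was too small to set it apart from the background.

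The other large rises were at nucleotides 76 and 357. At nucleotide 76, where hill 1 begins, Pol5-HTP rose from 362 to 708 reads, so that at least 346 reads or 48.9% (45.1% to 52.6%) began there. WT rose from 30 to 39 reads at the same nucleotide. At nucleotide 357, 5 nt before the 5.8S rRNA, Pol5-HTP rose from 324 to 644 reads, with at least 320 reads or 49.7% (45.8% to 53.6%) beginning there, whereas WT rose from 0 to 1 read. The WT rise came later. It had 1 read up to nucleotide 359, 139 at nucleotide 360, 197 at nucleotide 361 and 510 at the first nucleotide of 5.8S rRNA. Pol5-HTP had 767, 887, 987 and 1395 reads at these positions. In WT at least 313 of 510 reads at the first 5.8S nucleotide, or 61.4% (57.0% to 65.6%), began there, against at least 408 of 1395, or 29.2% (26.9% to 31.7%), in Pol5-HTP. At most 987 reads of Pol5-HTP and 197 of WT can have crossed this boundary. The WT reads at nucleotides 360 and 361 coincided with the only ITS1 nucleotides below the 2-fold threshold, with ratios of 1.69 and 1.32.

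**Figure D5:**
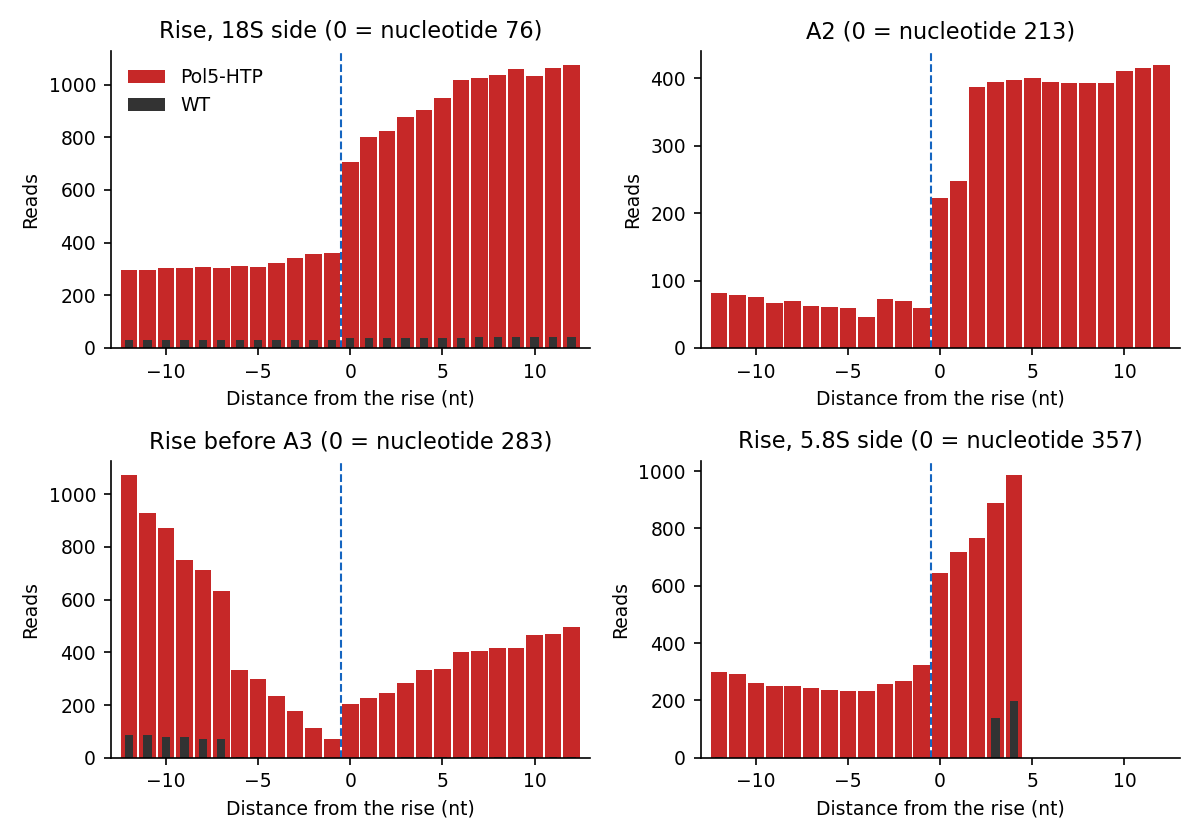
Reads per nucleotide around the 4 sharpest rises of Pol5-HTP coverage (wide bars) with the WT reads (narrow bars), against the distance in nt from the first nucleotide of the rise. Pol5-HTP rises from 362 to 708 reads at nucleotide 76, from 60 to 223 at 213, from 70 to 206 at 283 and from 324 to 644 at 357, and WT has no reads on either side of A2.

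The hills did not share a base composition. GC content was 62.8% under hill 1, 37.8% under hill 2, 50% under hill 3 and 20% under hill 4, against 36.01% in ITS1 and 45.03% in the 35S pre-rRNA. Uridine made up 16.3% of hill 1, 35.1% of hill 2, 35% of hill 3 and 40% of hill 4. Mean Pol5-HTP coverage was 242 normalized hits at the 110 adenines, 340 at the 57 cytosines, 347 at the 73 guanines and 266 at the 121 uridines of ITS1. A minimum free energy fold of the ITS1 sequence alone paired 63.7% of its nucleotides, with 69.8%, 81.1% and 72.5% under hills 1 to 3 and 36.4% under hill 4. Paired and unpaired nucleotides of this predicted fold had similar Pol5-HTP means, 285 and 290 normalized hits, and the Spearman correlation of pairing probability with coverage was 0.031 across 361 nucleotides, which are not independent. The fold is a prediction and takes no account of proteins or of the rest of the transcript. The stretches had 75%, 55.3% and 39.7% of their nucleotides paired, from the 18S side to the 5.8S side. Against its own stretch, pairing was lower under hills 1 and 4 and higher under hills 2 and 3. The troughs alone were not examined.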

How the data were processed

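After barcode removal and collapsing of identical sequences, the authors trimmed reads with Flexbar and mapped them to the yeast genome with Bowtie 2, version 2.3.4.2 in the submitters' processing notes (the paper's methods give another version). They deposited a coverage signal, in hits per 1000000 mapped reads for single 35S nucleotides, and read counts of RNA classes, not normalized. Neither the genome release nor the handling of reads shared by the rDNA copies is given in the sources used here, so no chromosome coordinates are printed.

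Of 6862 listed positions, 4 repeated a boundary nucleotide and were counted once. Reads were recovered from the coverage step (100% whole, within 0.01 of a read). Log2 ratios are of means with 10 normalized hits added. Their 95% intervals use the least number of reads a profile requires. Intervals at single nucleotides are exact (Poisson, or conditional binomial for ratios), and PCR-amplified reads are not independent molecules. Maxima had a prominence of at least 10% of the ITS1 maximum of the library and lay at least 10 nt apart. The nucleotides named are the highest and lowest of each stretch, the maxima, those beside A2, A3 and the ITS1 ends, the largest rises and falls, and the stretches with no WT reads. The rises at nucleotides 215 and 283, the edges of the WT blocks, the threshold of 4 WT reads and the count of reads by the stretch in which they begin were singled out after their values were seen. Alternatives changed scaling, the value added, mean or median, stretch limits, ends, fold and maxima. The members and lists were chosen with earlier results of these data known. Probe positions came from exact matches of the study's oligonucleotides to the deposited sequence. Python 3.11.15, numpy 2.4.6, scipy 1.17.1, matplotlib 3.10.9 and RNAfold 2.7.2 were used, and the code was tested on simulated data.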

Additional observations from a re-analysis of the deposited data

How the results depend on the processing

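The log2 ratio of ITS1 stayed positive under the 8 alternatives run. It was 2.81 with scaling to all 35S hits, 4.43 scaled to the class totals, 3.27 with 1 and 1.59 with 100 normalized hits added, and 4.09 by the median. Without the nucleotides where WT had 4 reads or more it was 4.06, an alternative chosen after the data were seen. Leaving out nucleotides for their high WT coverage lowers the WT mean by construction. The values under this alternative, also those of the stretches below, are therefore no sign of an excess. For the 18S side, the middle stretch and the 5.8S side, the class totals gave 4.35, 4.34 and 4.81, 100 added gave 1.43, 1.79 and 1.71, the median 3.66, 5.16 and 4.06, and leaving out the nucleotides with 4 WT reads or more 3.51, 4.86 and 4.29. With 1 added the 18S side had 3.46 and the 5.8S side 4.10, and without 10 or 30 nt at each end the 5.8S side had 4.15 and 4.30.

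The middle stretch minus the 18S side, -0.34 as reported (-0.73 to 0.041), turned to 0.36 with 100 added, 1.498 by the median and 1.35 without the WT blocks. The middle stretch minus the 5.8S side, -0.87 as reported, turned to 0.081, 1.10 and 0.57 under the same settings, and was -0.47 with the class totals, -1.32 with 1 added, and -1.51 and -1.66 without 10 and 30 nt at each end. The order of the middle stretch among the 3 thus depends on the setting. The turns without the WT blocks follow at least in part from how these nucleotides were chosen. Those with 100 added and by the median do not rest on that choice. The 5.8S side minus the 18S side rose to 1.15 and 1.29 without 10 and 30 nt at each end.

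Without 10 and 30 nt at each end, the 5.8S side held 3.83% and 2.62% of the WT hits and 17.0% and 13.7% of the Pol5-HTP hits. Without 30 nt the Pol5-HTP shares were 47.6% on the 18S side and 38.7% in the middle, and with the limits moved 5 nt towards the 5.8S rRNA the 5.8S side held 18.3%. An alternative chosen after the data were seen used the least number of reads that must begin in each stretch. By it the 18S side, middle stretch and 5.8S side held 13.8%, 27.1% and 59.1% in WT and 40.1%, 36.2% and 23.6% in Pol5-HTP. Without the last 2 nucleotides the stretches held 32.6%, 63.9% and 3.47% in WT and 41.9%, 37.9% and 20.2% in Pol5-HTP. The number of ITS1 nucleotides past the fold threshold was 262 with 100 added, 315 at 4 times WT and from 359 to 361 otherwise. The share over the whole 35S pre-rRNA is given for the reported setting only (36.0%). The counts under the other settings therefore have no background beside them. In Pol5-HTP, 5 maxima were found under all 3 settings for maxima, the fifth being the rise at nucleotide 361. No paired analysis was possible because there was only 1 library per group. WT depth limits ratios at single nucleotides, since its median over ITS1 was 2 reads.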
